A study of Homo sapiens with 6 samples.

Results

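The collagen chain genes are the genes whose symbol is COL, a type number, A and a chain number, and 44 of the 59653 genes in the count table met that rule. They were followed in SK-OV3 cells, an established human ovarian cancer line labelled as wild type, after transfection with a pool of siRNAs against the lncRNA PVT1 (siPVT1) or with a pool of scrambled control siRNAs (siControl). RNA was taken 48 h after transfection, and mRNA was sequenced in 6 libraries, 3 of each group. Nothing says whether the 3 libraries of a group came from separate cultures, so p-values measure the spread between these libraries, which may be technical. The rule for the genes used their symbols and no measured value, but earlier results of these data were known when it was chosen.

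Collagens are the main structural proteins of the extracellular matrix, and each collagen molecule is a triple helix of chains that one gene or several related genes encode. Before secretion, the chains are hydroxylated on proline and lysine and folded in the endoplasmic reticulum, and outside the cell many are trimmed and crosslinked. Fibrillar collagens build banded fibrils, type IV collagens build the network of basement membranes, and the remaining types form beaded filaments, anchor or decorate fibrils, or span the plasma membrane. Most collagen in solid tumours is made by fibroblasts, but carcinoma cells transcribe some chains too. Following textbook families, 11 of the 44 genes were grouped as fibrillar, 6 as basement membrane (type IV) and 27 as other.

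Total counts ranged from 28383171 to 35059576 per library. Values per library are given in the order of replicates 1, 2 and 3 of a group. Normalized counts below are estimated counts scaled by TMM, a method that matches the bulk of genes between libraries, and a gene was tested where at least 5 normalized counts stood in at least 3 libraries. A gene was called at a change of at least 2-fold and a p under 0.05 from the quasi-likelihood test of edgeR after adjustment over all tested genes (adjusted p). PVT1, the target, had 3289, 4079.7 and 3368 normalized counts in siControl and 2344, 2105 and 2057 in siPVT1. All siPVT1 libraries lay below all siControl libraries (log2 fold change −0.72, standard error 0.0967, adjusted p = 0.000342), and this decrease was under 2-fold. Of the siPVT1 libraries, replicate 3 stood farthest from the others, and its counts differed from those of replicate 1 by 45.3 and of replicate 2 by 19.6 chi-square units per gene compared, where pairs of siControl libraries gave 1.75 to 5.67.

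Of the 44 collagen chain genes, 34 were tested and 19 reached a group mean of 100 normalized counts. The 10 that were not tested were COL1A2, COL3A1, COL4A3, COL6A5, COL6A6, COL9A1, COL10A1, COL14A1, COL20A1 and COL23A1. COL6A6 had 0 counts in every library, and COL3A1, COL6A5, COL9A1, COL10A1 and COL14A1 had at most 3 counts in each library. Expressed at a group mean of 100 normalized counts or more were 5 fibrillar genes (COL1A1, COL5A1, COL5A2, COL24A1, COL27A1), 4 basement membrane genes (COL4A1, COL4A2, COL4A5, COL4A6) and 10 others (COL6A1, COL6A2, COL6A3, COL7A1, COL9A2, COL12A1, COL13A1, COL16A1, COL17A1, COL18A1). COL24A1 and COL9A2 reached this mean only in siPVT1, with siControl means of 85.3 and 64.8. COL8A1 fell short in both groups, with means of 94.8 in siControl and 95.8 in siPVT1.

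Genes were ranked by level only as normalized counts per kilobase of exon. Count thresholds and shares of counts in this report were not corrected for length. In siControl the 5 highest levels were 2334 ± 97.3 (SD, n = 3) for COL6A1, 1849 ± 67.2 for COL6A2, 691 ± 40.4 for COL4A1, 658 ± 24.4 for COL5A1 and 594 ± 26.7 for COL4A2. COL4A1 and COL5A1, neighbours in that order, differed by less than the sum of their SDs. With the length of the longest annotated transcript in place of all exons, the same 5 genes led in siControl, with COL4A2 at rank 3 in place of 5. In siPVT1 the level per kilobase of COL6A1 was 5514 ± 787, that of COL6A2 4656 ± 697 and that of COL5A2 1079 ± 134. COL5A2 was thus at rank 4, above COL4A1 at 912 ± 37.2, but these levels also differed by less than the sum of their SDs. With the length of the longest transcript the order in siPVT1 was reversed, with COL4A1 at rank 4 and COL5A2 at rank 7.

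**Figure D1:**
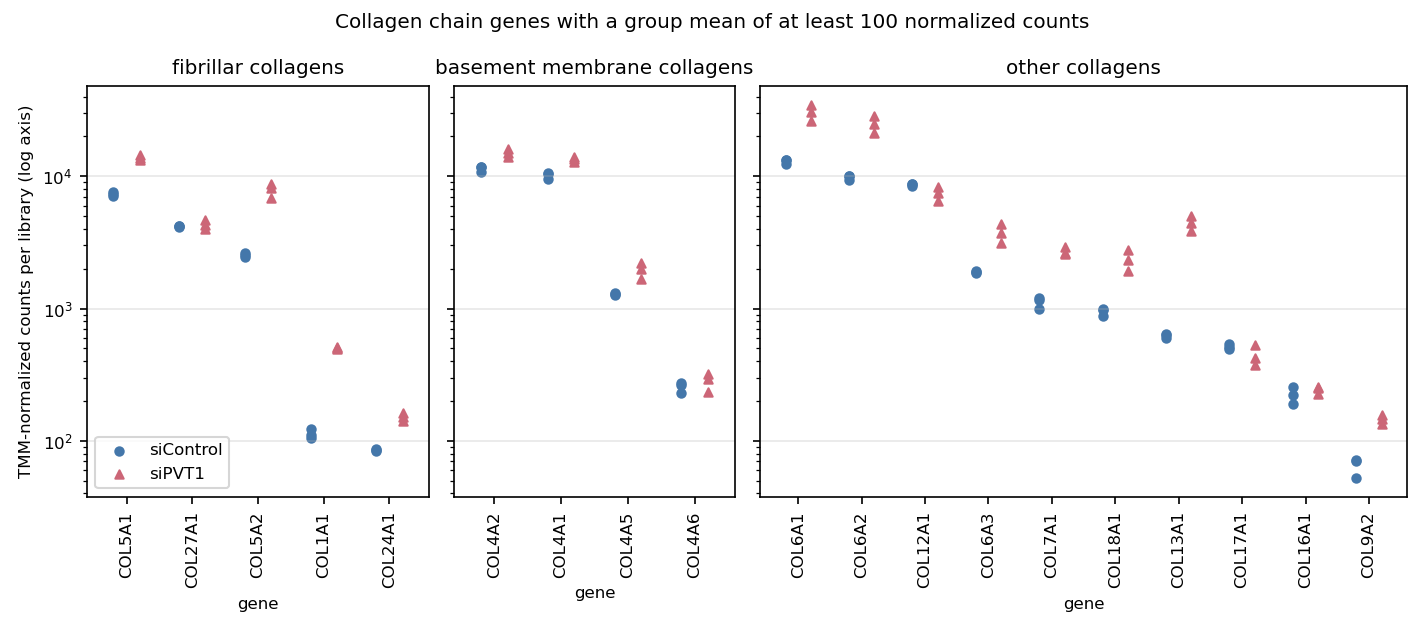
TMM-normalized counts (log axis) in each library for the 19 collagen chain genes with a group mean of at least 100, by class; circles are the 3 siControl and triangles the 3 siPVT1 libraries. COL13A1, COL1A1, COL5A2, COL6A1 and COL6A2 show a clear gap between the groups, whereas COL27A1 and COL16A1 overlap.

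Collagen transcripts took a larger part of the counts in siPVT1, with 3680.2 to 4505 CPM (counts scaled to the library total) over all 44 genes against 2494 to 2547 CPM in siControl. All 44 genes together summed to 76292, 71320.4 and 75860.2 normalized counts in siControl and to 147940.0, 134795 and 120917 in siPVT1. Every siPVT1 library lay above every siControl library, with a ratio of the means of 1.81. The sum rose from 23158 ± 1095 to 30740.4 ± 1923 (SD, n = 3) for basement membrane genes, a ratio of 1.33, from 14326 ± 390.3 to 26749.6 ± 1161 for fibrillar genes, a ratio of 1.87, and from 37008 ± 1325 to 77061 ± 10436 for the others, a ratio of 2.08. Type VI collagen (COL6A1, COL6A2 and COL6A3), part of the last class, went from 24671 ± 930.0 to 59106 ± 8708, a ratio of 2.40. These sums are descriptions without a test. In bulk RNA, fewer cells of a type and less RNA per cell cannot be told apart.

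**Figure D2:**
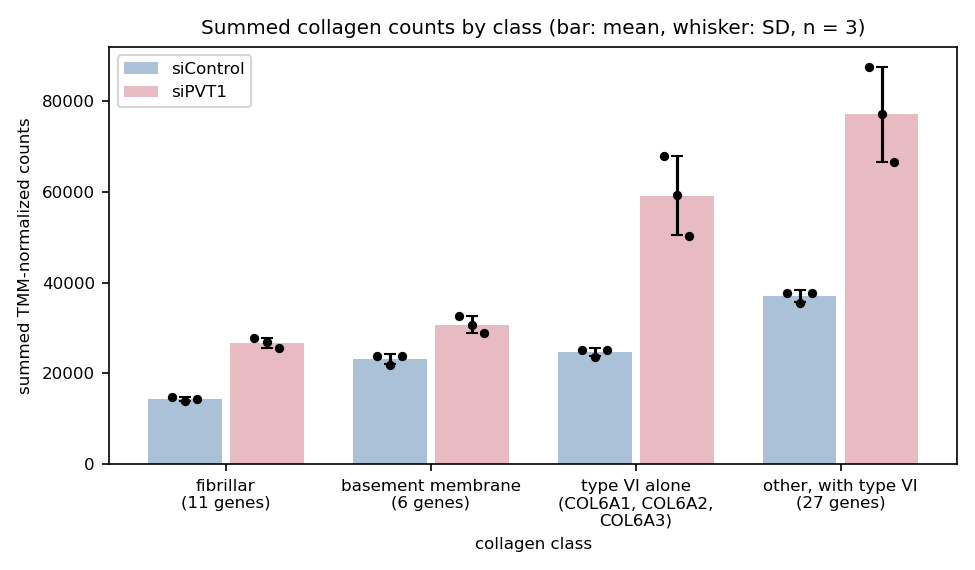
Summed TMM-normalized counts of each collagen class, with bars for the mean, whiskers for the SD over 3 libraries and black points for replicates 1, 2 and 3 from left to right. The sums of siPVT1 lie above those of siControl in every class, by a ratio of 1.33 in basement membrane genes and 2.40 in type VI genes, which are also part of the other class.

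As shares of all collagen counts, COL6A1 went from a mean of 17.3% in siControl to 22.6% in siPVT1, COL6A2 from 13.2% to 18.4%, and COL13A1 from 0.836% to 3.3%. Smaller shares in siPVT1 were found for COL4A2 (15.4% to 11.2%), COL4A1 (13.6% to 9.98%) and COL12A1 (11.6% to 5.52%). The type IV share thus decreased while the counts of COL4A1 and COL4A2 themselves increased.

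Of the 34 tested genes, 10 were called higher and 6 lower in siPVT1. That is 29.4% higher, where 11.8% of all 19008 tested genes were called higher, and 17.6% lower, where 9.64% of all were. All 6 called lower entered the test through their siControl counts, and COL9A3, called higher, through those of siPVT1. These shares are thus a description. By the adjusted p alone, 16 genes (47.1%) were higher and 6 lower, against 29.5% and 28.4% of all tested genes. The groups did not overlap in 16 tested genes that were higher in siPVT1 and in 7 (20.6%) that were lower, against 33.2% and 32.3% of all. The median log2 fold change of the 34 was 0.40, and that of all tested genes was 0.001. With scaling by the total count in place of TMM the median of all genes moved to −0.148, that of the 34 collagen genes moved to 0.25 and the share of called genes that were higher moved from 55.1% to 43.8%, while 10 collagen genes were called higher and 6 lower as before.

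The calls in each direction differed in the number of counts, which was not corrected for length here. Of the 21 tested genes with a mean of at least 50 normalized counts over all 6 libraries, 9 were called higher and 0 lower by edgeR, with 1 (COL12A1) lower at an unadjusted p under 0.05 and 0 called lower by DESeq2. Of the 13 genes below that mean, a level set after the data were seen, 1 was called higher and 6 lower. How the calls of all tested genes split at this level was not counted, so the split cannot be taken as particular to collagens. All 6 genes called lower (COL2A1, COL11A1, COL15A1, COL22A1, COL25A1, COL28A1) met the minimum for a test in all libraries of siControl and not of siPVT1, and COL9A3, called higher, met it only in siPVT1. COL5A3 also met it in all libraries of siControl and not of siPVT1, and did not pass the test (adjusted p = 0.523). Entry through the high group alone favours genes that differ, so these counts over tested genes are a description.

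**Figure D3:**
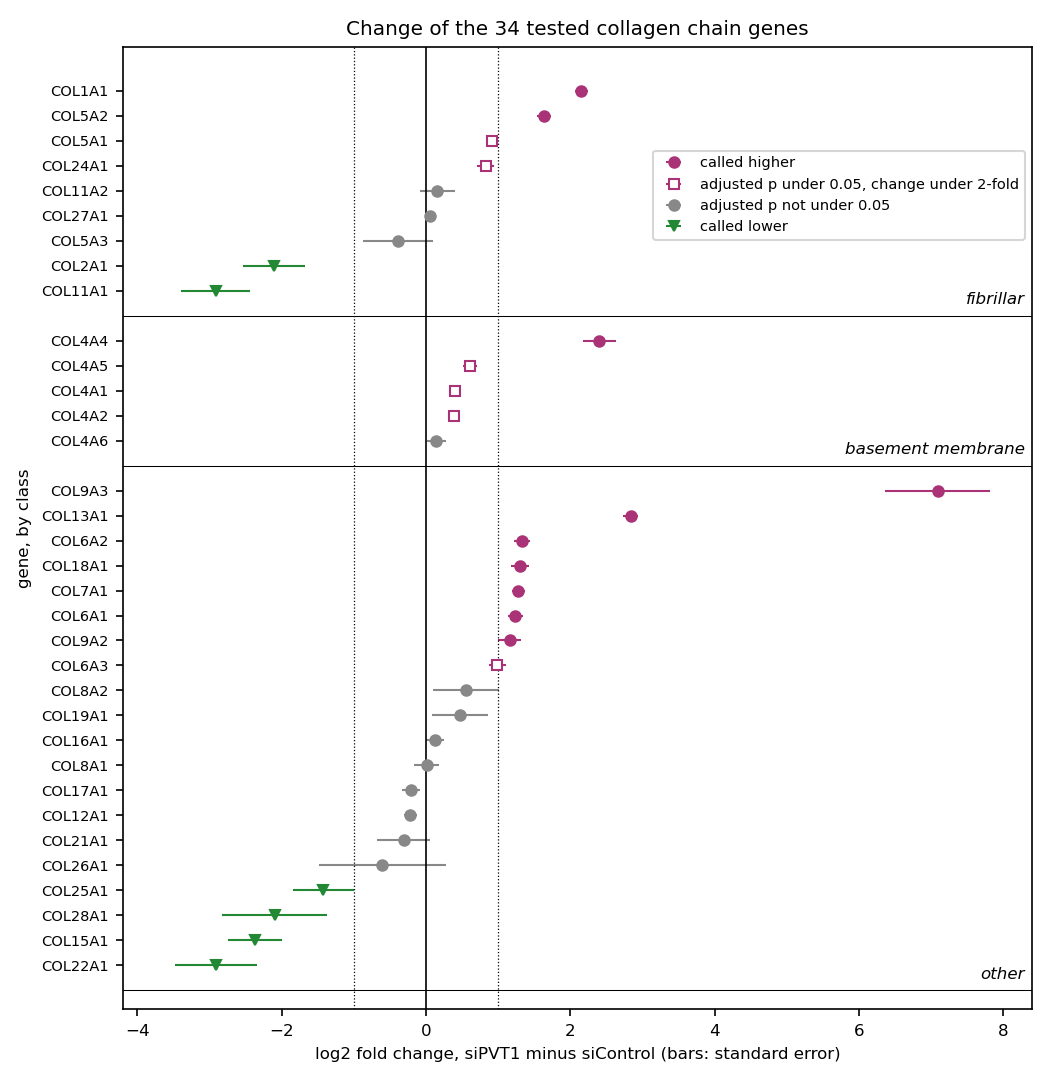
Log2 fold change (siPVT1 minus siControl) with its standard error for the 34 tested collagen chain genes, by class and sorted by size; dotted lines mark a 2-fold change. The 6 genes called lower have wider error bars than most genes called higher, and the point of COL9A3, which had 0 counts in all siControl libraries, depends on the prior count of the fit.

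Among the 11 fibrillar genes, 9 were tested, of which 2 were called higher (COL1A1 and COL5A2), 2 were called lower (COL2A1 and COL11A1) and 2 were higher by the adjusted p with a change under 2-fold (COL5A1 and COL24A1). COL1A1 encodes the α1 chain of type I collagen, the most abundant fibrillar collagen of connective tissue. Its normalized counts were 110.2, 106 and 123 in siControl and 512, 500.2 and 498 in siPVT1. The 3 libraries of each group lay close together and far from the other group (log2 fold change 2.15, standard error 0.0938, adjusted p = 1.64e-06). COL1A2 encodes the α2 chain with which COL1A1 forms type I collagen, and had 1, 0 and 3 counts in the siControl and 3, 4 and 2 counts in the siPVT1 libraries, too few for a test. The ratio of its counts, siPVT1 over siControl, was 2.44 with a 95% counting interval from 0.681 to 10.9, so a change was not detectable at this depth.

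Type V collagen, which regulates the diameter of type I fibrils, includes COL5A1, which had the highest level per kilobase of the fibrillar genes in siControl by either measure of length. COL5A1 had 7634, 7091 and 7321 normalized counts in siControl and 14379.8, 13778 and 13347 in siPVT1, an increase of 1.88-fold with no overlap (log2 fold change 0.91, standard error 0.0587, adjusted p = 8.21e-06). COL5A2 had 2637, 2456 and 2522 in siControl and 8741, 8122 and 6819 in siPVT1, with replicate 3 the lowest of the siPVT1 libraries and still far above siControl (log2 fold change 1.64, standard error 0.0944, adjusted p = 4.98e-06). COL5A3 was near the detection limit, with a mean of 9.5 ± 4.61 in siControl and 7.25 ± 2.69 in siPVT1 (SD, n = 3, adjusted p = 0.523). COL5A2 lies on the minus strand of chromosome 2 (chr2:189031898-189225312, GRCh38), 19151 bases from the end of COL3A1, which had at most 3 counts in every library.

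COL24A1 and COL27A1 belong to the later described fibrillar genes. COL24A1 had 87.4, 84.6 and 83.8 normalized counts in siControl and 152, 162 and 142 in siPVT1 (log2 fold change 0.83, standard error 0.118, adjusted p = 0.000469). COL27A1 did not pass the test, with 4179.9, 4155 and 4174 in siControl and 3988, 4295 and 4671 in siPVT1 (log2 fold change 0.05, standard error 0.0684, adjusted p = 0.557). In COL27A1 the siPVT1 libraries lay on both sides of siControl. The fibrillar chains of cartilage, COL2A1 and COL11A1, were called lower from low levels. COL11A1 had 19.9, 14.1 and 23 normalized counts in siControl and 1.11, 4.36 and 1.87 in siPVT1 (log2 fold change −2.91, standard error 0.477, adjusted p = 0.00103). COL2A1 had 11, 13 and 10 counts in siControl and 3, 2 and 2 in siPVT1 and summed to 34 counts over the siControl and 7 over the siPVT1 libraries, a ratio of siControl over siPVT1 of 4.48 (95% counting interval 1.95 to 12, adjusted p = 0.00329). COL11A2, the partner chain of COL11A1, had a mean of 29 ± 5.6 in siControl and 32.5 ± 4.65 in siPVT1 (adjusted p = 0.602). Counting intervals and limits here cover counting error only.

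The basement membrane genes are arranged in head-to-head pairs, and the members of a pair were compared. COL4A1 (minus strand, chr13:110148963-110307157) and COL4A2 (plus strand, chr13:110305812-110513209) on chromosome 13 encode the α1 and α2 chains of the common type IV collagen of basement membranes, and are known to be transcribed away from each other from a shared promoter. They have no exon base in common in the annotation. The 126 bases between their RefSeq starts (chr13:110307158-110307283, GRCh38.p14, plus strand) are shown because both genes start from this stretch, with a CCAAT and a GGGCGG in capitals. The run ends at the start of COL4A2, and COL4A1 is read from the opposite strand.
COL4A1/COL4A2: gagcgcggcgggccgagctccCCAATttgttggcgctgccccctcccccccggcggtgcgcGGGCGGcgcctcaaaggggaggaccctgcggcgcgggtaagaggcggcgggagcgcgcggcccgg

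COL4A1 had 10544, 9457 and 10409 normalized counts in siControl and 13902, 13402 and 12812 in siPVT1 (log2 fold change 0.40, standard error 0.0649, adjusted p = 0.000976). COL4A2 had 11678, 10867 and 11818 in siControl and 16121, 14947 and 13988 in siPVT1 (log2 fold change 0.39, standard error 0.0698, adjusted p = 0.00164). Both rose by less than 2-fold, and in neither did the groups overlap.

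The pair on the X chromosome, COL4A5 and COL4A6, is separated by 340 bases between gene ends. COL4A5, a chain of the basement membranes of kidney and other epithelia, had 1265, 1322 and 1288 normalized counts in siControl and 2208, 2003 and 1687 in siPVT1 (log2 fold change 0.61, standard error 0.098, adjusted p = 0.000958). COL4A6 had 273, 232 and 264 in siControl and 322, 295 and 235 in siPVT1, with overlapping groups (log2 fold change 0.15, standard error 0.134, adjusted p = 0.381). For COL4A6, scaling by the total count turned the log2 fold change to −0.0014. On chromosome 2, COL4A4 and COL4A3, which form a type IV molecule with COL4A5 in the kidney, lie 170 bases apart. COL4A4 was the one type IV gene called, with 16.1, 14.1 and 23 normalized counts in siControl and 96.6, 106 and 82.5 in siPVT1 (log2 fold change 2.40, standard error 0.23, adjusted p = 5.66e-05), and every siPVT1 library was well above every siControl library. COL4A3 had 1, 1 and 0 counts in siControl and 3, 7 and 4 in siPVT1 and was not tested, and the ratio of its counts, siPVT1 over siControl, was 7.6 (95% counting interval 1.74 to 68.9). It shares 838 exon bases with the antisense gene MFF-DT, which had a mean of 47.0 normalized counts in siControl and 26.8 in siPVT1, and the strand setting of the counting is not given in the sources used here, so reads in that stretch cannot be told apart.

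Type VI collagen forms beaded microfibrils near the cell surface, and COL6A1, COL6A2 and COL6A3 encode its common chains. COL6A1 (chr21:45981770-46005050) and COL6A2 (chr21:46098112-46132848) lie 93061 bases apart on the plus strand of chromosome 21, and COL6A3 (chr2:237324003-237414328) lies on the minus strand of chromosome 2. COL6A1 had 13203, 12299.5 and 13259 normalized counts in siControl and 34792, 30714 and 26079 in siPVT1 (log2 fold change 1.24, standard error 0.102, adjusted p = 2.67e-05). COL6A2 had 10097, 9452 and 10046 in siControl and 28602, 24729 and 21172 in siPVT1 (log2 fold change 1.33, standard error 0.105, adjusted p = 2.14e-05). COL6A3 had 1929, 1846 and 1882 in siControl and 4379, 3744 and 3107 in siPVT1 (log2 fold change 0.99, standard error 0.115, adjusted p = 0.000161). In all of them siPVT1 replicate 1 was the highest library and siPVT1 replicate 3 the lowest of siPVT1, above every siControl library. COL6A3 missed the 2-fold threshold by a small margin, and without siPVT1 replicate 3 it passed, with a log2 fold change of 1.09 (adjusted p = 5.1e-07). In all other settings its log2 fold change stayed below 1, at 0.84 with total-count scaling and 0.85 without siPVT1 replicate 1. COL6A5 had at most 3 counts in each library and COL6A6 had 0 in all.

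The 250 bases before the RefSeq start of COL6A2 (chr21:46097862-46098111, plus strand) and of COL6A3 (chr2:237414165-237414414, minus strand) are shown in GRCh38.p14 because both chains enter the same molecule and both rose in siPVT1. Capitals mark GGGCGG, its reverse complement CCGCCC, and TATAAA. COL6A2 holds 4 matches to GGGCGG on either strand and 1 to TATAAA, and COL6A3 holds none of the letters searched. In the annotation used for gene coordinates COL6A3 reaches 237414328, so its stretch lies partly within the annotated gene, unlike that of COL6A2.
COL6A2: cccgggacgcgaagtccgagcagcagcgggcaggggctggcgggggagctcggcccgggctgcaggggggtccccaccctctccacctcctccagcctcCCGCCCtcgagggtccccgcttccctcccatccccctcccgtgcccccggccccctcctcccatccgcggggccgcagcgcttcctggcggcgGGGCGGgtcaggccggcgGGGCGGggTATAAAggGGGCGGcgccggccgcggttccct
COL6A3: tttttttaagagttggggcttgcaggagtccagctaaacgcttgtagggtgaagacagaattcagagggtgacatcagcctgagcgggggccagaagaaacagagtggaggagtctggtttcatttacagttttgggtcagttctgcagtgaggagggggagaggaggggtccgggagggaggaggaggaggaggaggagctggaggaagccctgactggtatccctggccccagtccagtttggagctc

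The transmembrane collagen COL13A1, which encodes a chain found at sites of cell adhesion, had the smallest p-value of all the collagen chain genes, at rank 71 of 19008. Its normalized counts were 628, 602 and 638 in siControl and 5048, 4450.5 and 3862 in siPVT1. The mean rose 7.15-fold, with a spread within siPVT1 far below the gap between the groups (log2 fold change 2.84, standard error 0.104, adjusted p = 7.92e-07). Of the other transmembrane collagens, COL17A1, a component of the hemidesmosome, had 515 ± 21.5 in siControl and 444 ± 78.2 in siPVT1 (SD, n = 3, adjusted p = 0.185). COL25A1 had 10.4, 20.2 and 23 in siControl and 4.44, 8.72 and 6.56 in siPVT1 and the decrease passed both thresholds (log2 fold change −1.42, standard error 0.423, adjusted p = 0.0195), a call lost without siControl replicate 2 (adjusted p = 0.0602), siControl replicate 3 (0.0747) or siPVT1 replicate 1 (0.0553). COL23A1 had 1, 2 and 4 counts in the siControl libraries, 1, 1 and 0 in the siPVT1 libraries, and was not tested.

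The 250 bases before the RefSeq start of COL13A1 (chr10:69801656-69801905, GRCh38.p14, plus strand of chromosome 10) are shown because it had the strongest test result, with a match to TATAAA in capitals. In the annotation used for gene coordinates COL13A1 starts at 69801880, so the end of this stretch lies within the annotated gene.
COL13A1: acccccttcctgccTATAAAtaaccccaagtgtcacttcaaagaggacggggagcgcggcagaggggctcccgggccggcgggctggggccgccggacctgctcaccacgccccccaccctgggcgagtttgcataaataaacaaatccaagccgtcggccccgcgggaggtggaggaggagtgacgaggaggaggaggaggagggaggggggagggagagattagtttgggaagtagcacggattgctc

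COL7A1 encodes the chain of the anchoring fibrils that tie epithelial basement membranes to the matrix below. It had 1196, 999 and 1153 normalized counts in siControl and 2597, 2640.4 and 2899.5 in siPVT1 (log2 fold change 1.28, standard error 0.0855, adjusted p = 9.73e-06). Unlike in most collagen genes that rose, siPVT1 replicate 3 was here the highest library and not the lowest. The 250 bases before its RefSeq start (chr3:48595330-48595579, GRCh38.p14, minus strand of chromosome 3) are shown for comparison with COL13A1 and COL6A2, with 3 matches to GGGCGG and 1 to TATAAA, either strand, in capitals.
COL7A1: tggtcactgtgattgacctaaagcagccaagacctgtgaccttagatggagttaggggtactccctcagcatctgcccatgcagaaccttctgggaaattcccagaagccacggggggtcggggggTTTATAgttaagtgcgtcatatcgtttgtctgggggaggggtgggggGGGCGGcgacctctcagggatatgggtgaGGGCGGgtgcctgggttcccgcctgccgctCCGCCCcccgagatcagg

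The multiplexins COL18A1 and COL15A1, basement membrane associated collagens whose ends release endostatin and a related fragment, went in opposite directions. COL18A1 had 974, 882 and 995 normalized counts in siControl and 2770.0, 2341 and 1934 in siPVT1 (log2 fold change 1.30, standard error 0.127, adjusted p = 6.19e-05). COL15A1 had 52.2, 28.2 and 44.2 in siControl and 9.996, 4.36 and 9.37 in siPVT1 (log2 fold change −2.37, standard error 0.375, adjusted p = 0.000851). In neither gene did the groups overlap. COL18A1 shares 1563 of its 8464 exon bases with SLC19A1 on the opposite strand, which had a mean of 485 normalized counts in siControl and 339 in siPVT1, and reads in that stretch cannot be told apart without the strand setting.

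FACIT collagens sit on the surface of fibrils or near basement membranes, and 7 of the 10 FACIT genes were tested. COL9A2, a chain of cartilage type IX collagen, had 70.3, 52.4 and 71.9 normalized counts in siControl and 145, 158 and 134 in siPVT1 (log2 fold change 1.16, standard error 0.16, adjusted p = 0.00039). COL9A3, another chain of type IX, had 0, 0 and 0 counts in siControl and 15, 14 and 20 counts in siPVT1. Against a floor of 3 counts in each siControl library it was at least 5.87-fold higher in siPVT1, and it was called higher. COL9A3 shares 155 exon bases with TCFL5 on the opposite strand, which had a mean of 403 normalized counts in siControl and 480.5 in siPVT1. COL9A1 had at most 3 counts in each library.

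COL12A1, the most abundant FACIT chain by level per kilobase, did not pass the test. It had 8674, 8475 and 8761 normalized counts in siControl and 8351, 7474 and 6499 in siPVT1. All siPVT1 libraries thus lay below all siControl libraries (log2 fold change −0.22, standard error 0.089, adjusted p = 0.0685). This outcome depended on the setting. The adjusted p of COL12A1 was 0.0468 in DESeq2, and in edgeR 0.00754 with total-count scaling, 0.00516 without siPVT1 replicate 1 and 0.0417 without siPVT1 replicate 3. In all other settings it was between 0.0539 and 0.153, and the change stayed under 2-fold throughout. COL16A1 had 223 ± 32.5 in siControl and 244 ± 13.8 in siPVT1 (SD, n = 3, adjusted p = 0.413), and its log2 fold change of 0.13 became −0.019 with scaling by the total count. COL22A1, known from tissue junctions, was called lower, with 13, 7 and 7 counts in siControl and 1, 1 and 1 in siPVT1, a ratio of siControl over siPVT1 of 8.29 (95% counting interval 2.55 to 42.7, adjusted p = 0.00273). COL20A1 had 4, 7 and 4 counts in siControl and 0, 0 and 0 in siPVT1 and was not tested. Against a floor of 3 counts per siPVT1 library it was at least 1.54-fold lower in siPVT1. COL19A1 and COL21A1 had means between 6.94 and 13.5 normalized counts and did not pass the test (adjusted p = 0.329 and 0.535). COL19A1 shares 85 exon bases with LMBRD1 on the opposite strand.

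The short chain network collagens COL8A1 and COL8A2, typical of vessel walls and the cornea, did not pass the test. COL8A1 had 98.8, 91.7 and 94 normalized counts in siControl and 77.7, 118 and 91.8 in siPVT1 (adjusted p = 0.952), and COL8A2 had 6.65, 5.04 and 7.37 in siControl and 6.66, 15.3 and 6.56 in siPVT1 (adjusted p = 0.333). Of the remaining pair, COL26A1 was near the detection limit (adjusted p = 0.585). COL28A1 was called lower, with 9, 5 and 6 counts in siControl and 2, 2 and 0 in siPVT1, a ratio of siControl over siPVT1 of 4.61 (95% counting interval 1.54 to 18.5, adjusted p = 0.0353). That call was lost in DESeq2 (adjusted p = 0.098), without a filter (0.0513), with the replicate number as a block (0.0634), and without any one of the siControl libraries (0.0546 to 0.111) or siPVT1 replicates 2 or 3 (0.0561 and 0.0678).

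Chains that assemble into one molecule were also compared as ratios of estimated counts within each library, which do not depend on scaling between libraries. The ratio of COL4A1 to COL4A2 was 0.903, 0.87 and 0.881 in siControl and 0.862, 0.897 and 0.916 in siPVT1, and the groups overlapped (two-sided exact permutation p = 0.8). The ratio of COL6A2 to COL6A1 was 0.765, 0.768 and 0.758 in siControl and 0.822, 0.805 and 0.812 in siPVT1, and that of COL6A3 to COL6A1 was 0.146, 0.15 and 0.142 in siControl and 0.126, 0.122 and 0.119 in siPVT1. Relative to COL6A1, siPVT1 libraries thus held more COL6A2 and less COL6A3 than siControl libraries, without overlap. The ratio of COL5A2 to COL5A1 was 0.345, 0.346 and 0.344 in siControl and 0.608, 0.589 and 0.511 in siPVT1. For COL4A5 over COL4A6 it was 4.64, 5.7 and 4.87 in siControl and 6.86, 6.78 and 7.17 in siPVT1. The last 4 ratios each gave an exact permutation p of 0.1, the smallest that 3 libraries against 3 allow, and 0.125 after Benjamini-Hochberg adjustment over 5 ratios, so none could pass 0.05.

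**Figure D4:**
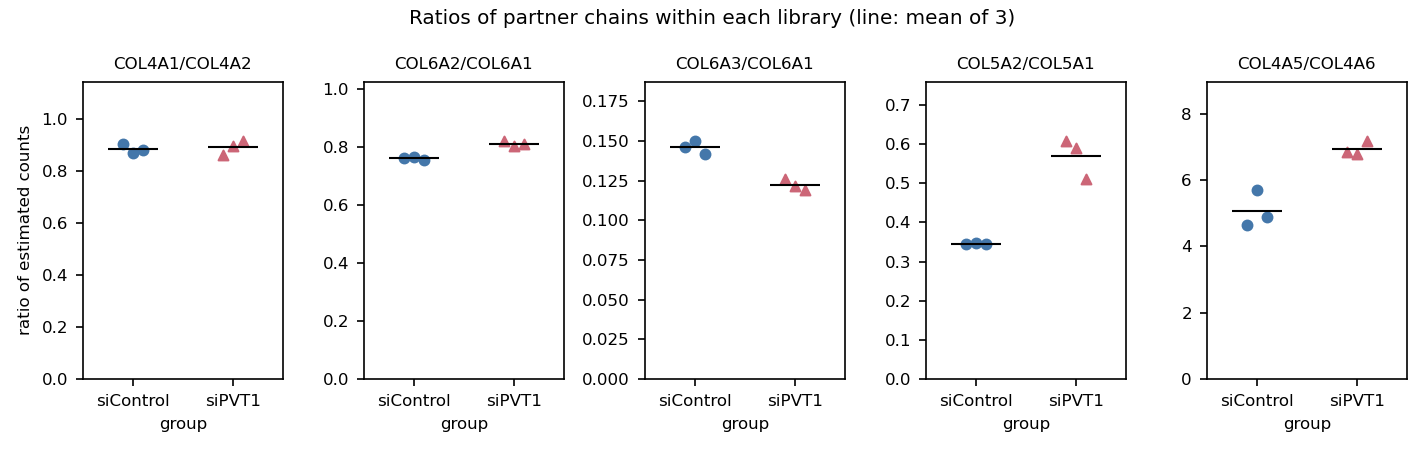
Ratio of estimated counts of partner chains within each library (vertical axes start at 0), with points for the 3 libraries of each group and a line at their mean. COL4A1/COL4A2 overlaps between the groups (means 0.885 and 0.892), and COL5A2/COL5A1 goes from a mean of 0.345 in siControl to 0.569 in siPVT1.

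Among the 14 collagen chain genes with a mean of at least 100 in siPVT1 that were higher by the adjusted p, siPVT1 replicate 3 was the lowest of the siPVT1 libraries in 13 and the highest in 1, and replicate 1 was the highest in 11. Library siPVT1 replicate 3 is also the one that stood apart over all genes. How often the same order held among all genes that were higher was not counted. Without it, 11 collagen genes were called higher and 5 lower, in place of 10 and 6.

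Start sites were compared for short sequence matches, searched on both strands in the RefSeq windows from 250 bases before to 50 bases after each gene's start. Of the 44 genes, 32 had a window. GGGCGG, bound by Sp1 family factors, was found in 21 of these (65.6%) and in 48.3% of all 27305 genes with a window, and TATAAA in 7 (21.9%) against 14% of all. CCAAT was found in 12 (37.5%) against 39.7% of all, and ACGTG, the core letters of hypoxia response elements, in 6 (18.8%) against 24.9% of all. None of these motifs contains another. Of the 10 genes called higher, 6 had a window, of which 4 held GGGCGG (COL6A2, COL7A1, COL9A2, COL18A1) and 4 held TATAAA (COL6A2, COL7A1, COL13A1, COL18A1), and 0 held CCAAT or ACGTG. A match of letters is a description of the window only.

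Collagen chains depend on enzymes and partners that are not collagens, and 80 such genes were listed by role. Of these, 70 were tested, 21 called higher and 4 lower, against the 11.8% and 9.64% of all genes given above. The lists were made with earlier results of these data known, so their counts are a description and no independent comparison with all genes. With scaling by the total count, 16 were called higher and 4 lower. The median log2 fold change of the 70 was 0.62. Of the 19 genes for modification and folding, all tested, 5 rose and 2 fell past both thresholds. The prolyl 4-hydroxylase subunits P4HA1 and P4HA2, which stabilise the helix, rose with log2 fold changes of 2.25 and 1.86 (adjusted p = 1.45e-06 and 7.69e-07). The lysyl hydroxylase PLOD2 rose by 1.83 (adjusted p = 7.69e-07) and the prolyl 3-hydroxylase P3H3 by 1.64 (adjusted p = 1.3e-06) on the same scale. In the opposite direction, SERPINH1, the collagen chaperone HSP47, had 1568, 1567 and 1623 normalized counts in siControl and 675, 706 and 637 in siPVT1 (log2 fold change −1.24, standard error 0.0676, adjusted p = 3.86e-06). COLGALT2, a collagen galactosyltransferase, fell as well (log2 fold change −1.63, adjusted p = 8.08e-06).

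Of the 9 secretion genes, all tested, 0 were called higher and 1 lower by edgeR and also by DESeq2, and 5 were higher at an unadjusted p under 0.05, all of them also by the adjusted p alone. The gene called lower was MIA2, a cargo receptor at ER exit sites that aids procollagen export. MIA2 passed the 2-fold threshold by a small margin (log2 fold change −1.01, adjusted p = 2.99e-05), whereas its relative MIA3 did not pass the test (−0.08, adjusted p = 0.299). Of 13 tested genes for processing and crosslinking, 6 were called higher and 0 lower by edgeR and also by DESeq2, with 3 lower at an unadjusted p under 0.05. Those higher included LOX and LOXL2, lysyl oxidases that crosslink collagen (log2 fold changes 1.95 and 1.15), PXDN, a peroxidase that crosslinks type IV collagen (1.55), and PCOLCE, an enhancer of propeptide removal (1.72), each with an adjusted p of at most 1.93e-05.

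Of 8 tested collagen receptors, 4 were called higher and 0 lower by edgeR and also by DESeq2, with 0 lower at an unadjusted p under 0.05. Those called were the uptake receptor MRC2 (log2 fold change 2.06) and the integrin α subunits ITGA1 (1.10), ITGA2 (1.07) and ITGA11 (1.88), with adjusted p from 7.05e-06 to 0.00194. Among the 9 tested genes of collagen cleavage, 2 were called higher and 0 lower by edgeR and also by DESeq2, with 1 lower at an unadjusted p under 0.05, and the called genes were the gelatinase MMP9 (1.86, adjusted p = 2.84e-05) and the lysosomal protease CTSK (1.28, adjusted p = 0.000564). Among 12 tested partners of fibrils and basement membranes, 4 were called higher and 1 lower. The laminin chain LAMA5 (1.78), nidogen NID1 (1.10) and fibronectin FN1 (1.17) rose, with adjusted p from 2.84e-06 to 0.000283, and TGFBI, a collagen-binding matrix protein, fell (−1.25, adjusted p = 1.5e-06). The proteoglycan BGN had 0, 0 and 1 counts in siControl and 8, 7 and 6 in siPVT1, a ratio of 22.8 with a wide 95% counting interval from 3.67 to 942, and an adjusted p of 0.00265. BGN met the minimum for a test only in siPVT1, the group where it was high, so its call is a description.

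**Figure D5:**
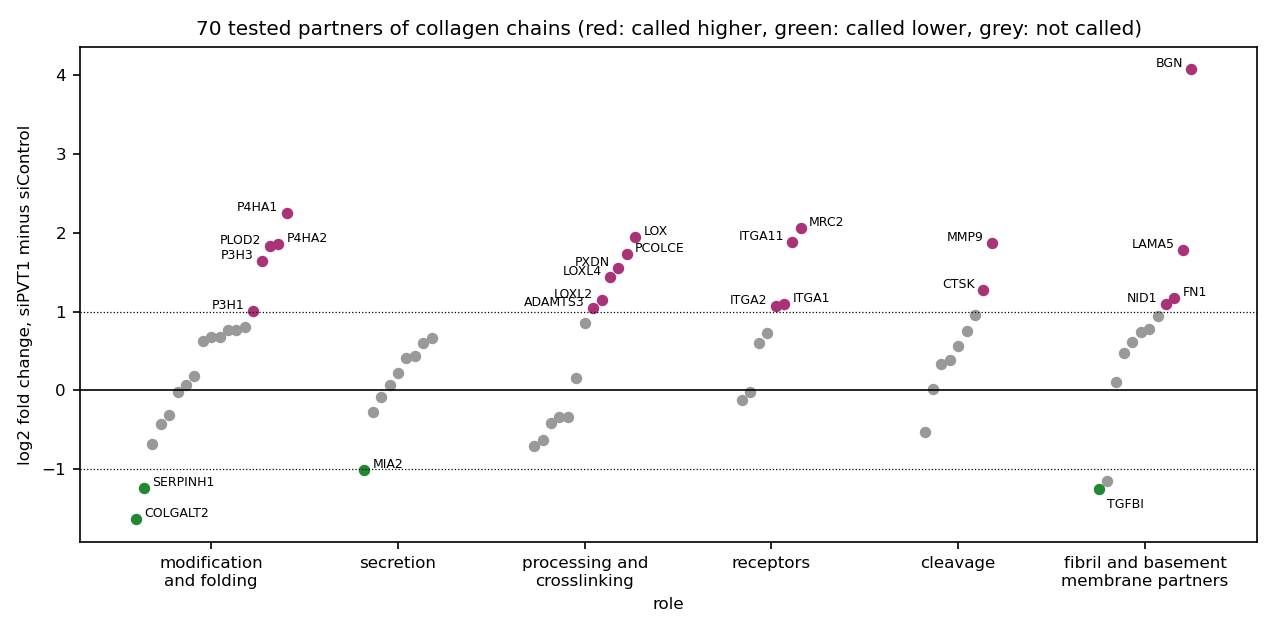
Log2 fold change (siPVT1 minus siControl) of the 70 tested partner genes by role, sorted within each role, with genes called higher in red, called lower in green and all others in grey; dotted lines mark a 2-fold change. Most roles hold genes called higher, secretion holds 0, and SERPINH1, COLGALT2, MIA2 and TGFBI are called lower; the point of BGN, with 1 siControl count in all, depends on the prior count of the fit.

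Markers of other cells were read beside these results. Of the 6 epithelial markers, the keratin KRT19 was called higher (log2 fold change 2.30, adjusted p = 0.000103), and by the adjusted p with a change under 2-fold KRT8 (0.32) and KRT18 (0.37) were higher and KRT7 (−0.51) and ERBB2 (−0.43) lower. EPCAM did not pass the test (−0.54, adjusted p = 0.251). KRT7, KRT8 and KRT18 each had means of at least 4996 normalized counts in both groups, and the 6 together summed to 23801 to 26971 in siControl and 28089 to 30356 in siPVT1. Of the 6 fibroblast markers, DCN and THY1 had at most 3 counts in every library, and LUM and FAP did not pass the test. PDGFRA and PDGFRB rose (log2 fold changes 2.11 and 1.81, adjusted p = 0.0455 and 4.51e-06). The rise of PDGFRA rested on few counts, 7, 9 and 0 in siControl and 31, 23 and 10 in siPVT1 (standard error 0.777). DCN, LUM and FAP are also in the partner lists. The 6 together summed to 422 to 461 normalized counts in the siControl and 599 to 706 in the siPVT1 libraries. All 3 endothelial markers (CDH5, PECAM1, VWF) rose, with log2 fold changes of 2.22, 2.99 and 1.66, and their sum went from between 2041 and 2067 to between 8585 and 10855. Of the leukocyte markers, PTPRC had at most 3 counts in each library and CD68 did not pass the test, with sums from 548 to 605 in siControl and from 579 to 889 in siPVT1. Of the collagens that fibroblasts make in quantity, COL1A2 and COL3A1 had at most 4 counts in any library, whereas COL1A1 rose from a mean of 113 ± 8.68 to 503 ± 7.68 normalized counts (SD, n = 3). The part in the collagen result of the cells or states these endothelial and PDGF receptor genes mark was not tested.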

How the data were processed

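The 6 mRNA libraries of SK-OV3 cells were used, 3 siControl and 3 siPVT1, grouped by their labels. The authors prepared mRNA libraries, aligned single-end reads to the GENCODE v35 transcriptome (GRCh38) and counted them with Salmon. The deposited values are estimated counts, whole numbers for each gene symbol that were not normalized. The submitters' processing notes name bcl2fastq 2.20.0, STAR 2.7.3a, Salmon 0.14.1 and DESeq2 1.28.1. The strand setting is not given in the sources used here, and Salmon divides reads shared by similar transcripts by estimation. Total counts of 28383171 to 35059576 per library set the precision for genes of low counts.

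Counts were compared with edgeR 4.0.16 (R 4.3.3), TMM normalization over all genes and the quasi-likelihood test, with Benjamini-Hochberg adjustment over the 19008 genes with at least 5 normalized counts (DESeq2 size factors) in at least 3 libraries. A gene was called at an adjusted p under 0.05 with a log2 fold change of 1 or more in size. The standard error of a log2 fold change was taken as its size over the root of F. A group with at most 3 counts in every library was taken to be at the floor. Permutation tests were exact and two-sided, with 0.1 as the smallest p for 3 libraries against 3. The script was tested on simulated counts with 200 changed genes. DESeq2 1.42.0 and other settings were alternatives.

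The collagen members, classes, partner and marker lists were chosen with earlier results of these data known. All members may be named, and values per library are given for members called, for their partner chains and for the 5 highest levels per kilobase. Those of COL24A1, COL27A1, COL12A1, COL8A1 and COL8A2 were added after their values were seen. Partners named are those called, at most 4 per role and direction by p-value, and P4HA1, PLOD2, SERPINH1 and LOX. MIA3 was named after its value was seen. Gene coordinates and exon lengths came from GENCODE v44 (GRCh38), in which 44 of 44 symbols matched, and sequences from RefSeq windows on GRCh38.p14. Samples were not treated as paired, since deviations of same-numbered libraries correlated at −0.04, 0.04 and 0.00. Differently numbered libraries gave −0.05 to 0.06. The labels do not state whether libraries were prepared in pairs, and these correlations cannot settle it.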

Additional observations from a re-analysis of the deposited data

How the results depend on the processing

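The number of collagen chain genes called higher stayed between 10 and 11 in DESeq2, with DESeq2 size factors or total-count scaling in edgeR, without a filter, with filterByExpr, with the replicate block and with each library left out, where the same 19008 genes were tested. In a test against a 2-fold change it was 8, and by the adjusted p alone 16, with 4 fibrillar and 4 basement membrane genes. The number called lower was less stable, at 3 with filterByExpr, which tested 27 genes, 3 in a test against a 2-fold change and 4 to 5 with a library left out. Of these, fibrillar genes numbered 1, 1 and 2, and other collagens 2, 2 and 2 to 3. Without a filter, 2 basement membrane genes were called higher. The median log2 fold change was 0.16 without a filter, 0.61 with filterByExpr and 0.22 to 0.42 with a library left out, lowest without siPVT1 replicate 1 and 0.24 without siPVT1 replicate 2. As CPM, the summed ratios were 1.20 for basement membrane and 1.68 for fibrillar genes. Partners called higher numbered 44 by the adjusted p alone and 13 against a 2-fold change, and those lower 11 by the adjusted p alone. Over all genes, the adjusted p alone gave 5612 higher and 5395 lower, and the 2-fold test 1184 and 792. Total-count scaling reversed COL16A1 (−0.019), COL27A1 (−0.099), COL4A6 (−0.0014) and COL8A1 (−0.13), none of them called. With a library left out, the sign changed within the ranges of COL26A1 (−1.74 to 0.0089), COL27A1 (−0.026 to 0.090), COL5A3 (−0.68 to 0.012) and COL8A1 (−0.17 to 0.13), none of them called. The replicate numbers share only a number, and with the replicate block 10 collagen genes were called higher and 5 lower (2158 and 1766 of all genes), with COL8A1 at −0.0013 and COL28A1 no longer called. The causes were not tested. Members under about 50 counts per library carry the widest errors.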
